A study of Mus musculus with 4 samples.

Results

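The genes of the G1/S transition were examined in J558 allografts, 10 members in all among the 24421 genes counted: the D cyclins Ccnd1, Ccnd2 and Ccnd3, the E cyclins Ccne1 and Ccne2, the kinases Cdk2, Cdk4 and Cdk6, the transcription factor gene E2f1 and the retinoblastoma gene Rb1. They were chosen by gene symbol, and all 10 passed the filter on low counts. J558 is a mouse plasmacytoma line, grown here under the skin of female BALB/c mice. The mice were dosed by mouth once daily for 6 days with TAK-931 at 60 mg/kg, an inhibitor of the kinase CDC7 (2 libraries, TAK-931-1 and TAK-931-2), or with its vehicle, 0.5% methylcellulose (2 libraries, Vehicle-1 and Vehicle-2). Bulk RNA was sequenced, so each library holds tumour cells together with host cells, and fewer cells of a type cannot be told apart from less RNA per cell.

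D cyclins bind CDK4 or CDK6 when growth signals are present, and the active kinases phosphorylate the retinoblastoma protein. Phosphorylated RB releases E2F transcription factors, which switch on the E cyclins and the genes for DNA synthesis, and cyclin E with CDK2 completes RB phosphorylation and drives entry into S phase. CDC7, the target of TAK-931, acts after this point, at the replication origins. Plasma cells and their tumours usually rely on 1 of the D cyclins more than on the others.

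Library depth was between 16487902 and 19589339 counts, and a count of 0 allows up to 3 counts, or between 0.153 and 0.182 CPM, where CPM stands for counts per 1000000 counts. Small counts were mostly even, which points to both mates of a read pair being counted, so floors and intervals, which cover counting error only, are too narrow. The labels give the cell type as B lymphocyte. Of 8 B cell genes, 5 passed the filter. The summed levels of all 8 were 202.3, 244.9, 132.5 and 238.9 CPM in Vehicle-1, Vehicle-2, TAK-931-1 and TAK-931-2. Most of that sum was Cd79b, a B cell receptor subunit, between 74.02 and 208.9 CPM, and the B cell factor gene Pax5 was listed at 0 in all 4 libraries. The genes of this list differed in direction. Cd22 had 1.423, 1.319, 41.67 and 11.38 CPM in the same order, and Ms4a1 had 30.54, 30.15, 13.28 and 52.74 CPM. Of the 5 tested, 1 was higher without overlap (30.0% of all tested genes), 1 was lower (32.7%) and 3 overlapped. Their median log2 fold change was 1.16. The plasma cell gene Sdc1 lay between 241.5 and 695.9 CPM. TAK-931-1 stood apart from the other libraries. The summed level of 9 plasma cell and J558 genes was 9887 and 10470 CPM in Vehicle-1 and Vehicle-2. TAK-931-1 had 4858 and TAK-931-2 had 13840 CPM, and 9 of the 9 genes were lowest in TAK-931-1. Most of each sum was Jchain, with 5080, 5657, 3136 and 8124 CPM in that order of libraries. In TAK-931-2, Sdc1, Xbp1 and Mzb1 (587.9, 972.3 and 776.6 CPM) were also below both vehicle-treated libraries. These were 3 of the 9 (32.7% of all tested genes were lower in both), and 6 overlapped. The sums were 645.6, 545.2, 9499 and 1693 CPM for 12 macrophage genes, in the same order of libraries, and 1968, 2259, 15810 and 5349 CPM for 10 fibroblast genes. For 13 T cell genes they were 116.2, 97.64, 1536 and 196.0 CPM. For 7 NK cell genes they were 44.89, 24.82, 346.1 and 92.36 CPM, for 9 endothelial genes 266.5, 293.7, 987.0 and 277.3 CPM, and for 9 skeletal muscle genes 103.7, 103.8, 793.3 and 19.14 CPM. All genes of these 6 host lists were highest in TAK-931-1, as were 6 of 7 adipocyte genes (summed levels 66.89, 85.36, 725.7 and 57.12 CPM, with 1 gene at 0 under vehicle). The part of these cells in the results was not tested.

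The control regions of Cdk4, Cdk2 and Ccne1, 3 of the 4 members that were lower in both TAK-931-treated tumours, are shown first, with that of Ccnd3, which was higher in both, for comparison. RefSeq (GRCm38.p6) entries were matched for 6 of the 10 genes. The genes without an entry were Ccnd1, Ccnd2, Ccne2 and Rb1. The 250 bases before the start of transcription are printed 5′ to 3′ on the strand of the gene. Capitals mark an E-box, CACGTG, the sequence recognised by MYC with MAX, or an E2F match, which is TTTCCCGC, TTTCGCGC, TTTGCCGC or TTTGGCGC on either strand. No match of one motif overlapped a match of the other.
Cdk4, chr10:127063285-127063534, plus strand: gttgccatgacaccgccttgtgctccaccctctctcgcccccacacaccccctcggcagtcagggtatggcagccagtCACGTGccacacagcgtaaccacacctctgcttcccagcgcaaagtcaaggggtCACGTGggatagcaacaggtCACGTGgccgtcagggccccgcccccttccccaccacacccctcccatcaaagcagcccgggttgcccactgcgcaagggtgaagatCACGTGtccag
Cdk2, chr10:128705052-128705301, minus strand: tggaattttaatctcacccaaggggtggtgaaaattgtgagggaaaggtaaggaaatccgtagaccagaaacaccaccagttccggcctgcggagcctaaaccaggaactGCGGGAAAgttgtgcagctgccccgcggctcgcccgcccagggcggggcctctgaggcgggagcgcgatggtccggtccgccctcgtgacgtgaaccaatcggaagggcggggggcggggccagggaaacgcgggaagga
Ccne1, chr7:38107491-38107740, minus strand: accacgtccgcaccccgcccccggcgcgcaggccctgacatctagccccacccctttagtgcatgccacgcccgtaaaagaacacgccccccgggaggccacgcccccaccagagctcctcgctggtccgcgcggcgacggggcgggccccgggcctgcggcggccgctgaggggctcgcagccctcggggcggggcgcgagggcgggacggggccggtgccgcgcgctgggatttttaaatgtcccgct
Ccnd3, chr17:47504801-47505050, plus strand: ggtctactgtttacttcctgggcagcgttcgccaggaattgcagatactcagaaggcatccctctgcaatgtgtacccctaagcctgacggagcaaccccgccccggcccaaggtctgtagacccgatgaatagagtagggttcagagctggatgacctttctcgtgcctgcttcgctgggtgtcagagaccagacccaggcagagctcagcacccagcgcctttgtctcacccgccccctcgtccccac

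A run of 4 E-boxes stands before Cdk4, the nearest of them ending 6 bases from the start of transcription. Of 32851 RefSeq promoter entries, 6.02% held at least 1 E-box in this window and 7 entries (0.0213%) held 4 or more. The motifs were chosen after the sequences were seen, and the threshold of 4 is the number found before Cdk4. The shares given here are therefore no test. A single E2F match stands before Cdk2, on the opposite strand, between 140 and 133 bases from the start, and 1.86% of entries held such a match. The window of Cdk6, a member that was higher in both, also held an E-box, from 220 to 215 bases before the start that its entry gives, which lies inside the RefSeq span of the gene. No match of either kind was found in the windows of Ccne1 and Ccnd3. For Ccnd3 this held for both of its 2 entries, of which the first is printed and the second is chr17:47593217-47593466. Which of the 2 starts is used in these tumours was not tested. The E2f1 entry lay inside the annotated gene and was not used. A match is a description of letters and not evidence of binding.

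In vehicle-treated allografts the members stood at very unequal levels. Levels of different genes were compared per length, as CPM per kilobase of exon with CPM taken on scaled library totals. Cdk4 had by far the highest level of the 10, with 309.1 in Vehicle-1 and 312.1 in Vehicle-2. Ccne1 followed with 62.36 and 60.28 and Ccnd2 with 61.23 and 54.52, and these genes overlapped. Cdk2 had 29.65 and 32.78, Ccnd3 24.37 and 25.09, E2f1 20.45 and 20.66, and Rb1 9.693 and 11.30, each pair clear of the next on this scale. Ccne2 (3.996 and 4.859) and Ccnd1 (4.311 and 4.153) overlapped near the bottom. This place of Ccne2 holds for its full exon length only: per base not shared with Ints8, a gene on the opposite strand, it had 8.66 and 10.5, above Ccnd1 (4.33 and 4.18) and overlapping Rb1. Likewise Ccnd3, per base not shared with Bysl, had 28.96 and 29.81 and overlapped Cdk2, so its place under Cdk2 also holds for full exon length only. Cdk6 was last, with 0.1921 and 0.09707. Among all genes tested, Cdk4 stood above 98.1% and 98.2% of them per length in the vehicle-treated libraries, and Cdk6 above 6.23% and 2.89%.

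**Figure D1:**
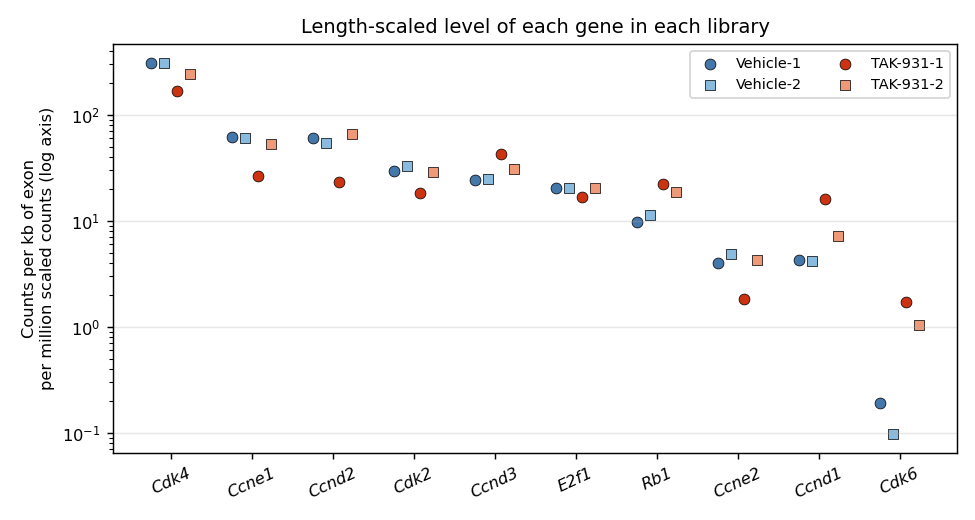
Length-scaled level of the 10 genes in each of the 4 libraries, in CPM per kilobase of exon on a log axis, ordered by the vehicle mean. Cdk4 lies highest in every library (169.6 to 312.1), and Cdk6 lies below 0.2 in both vehicle-treated and above 1 in both TAK-931-treated libraries.

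To ask how treatment related to these genes, TAK-931-treated and vehicle-treated allografts were compared in a quasi-likelihood test with edgeR over all 13669 genes that passed the filter. The members split. For Ccnd1, Ccnd3, Cdk6 and Rb1, TAK-931-1 and TAK-931-2 each exceeded Vehicle-1 and Vehicle-2, and for Ccne1, Cdk2, Cdk4 and E2f1 each lay under them. Groups did not overlap for 4 members in the higher direction, where 30.0% of all tested genes did the same, and for 4 in the lower direction, where 32.7% did, 8 of 10 in either direction against 62.7% of all tested genes. In all 8 the distance to the mean of the vehicle-treated pair was greater for TAK-931-1 than for TAK-931-2, as it was in 82.6% of the 8571 tested genes whose groups did not overlap. Ccnd2 and Ccne2 overlapped.

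No member passed an adjusted p of 0.05 in edgeR, and no gene of the whole table did (percent called 0; lowest adjusted p by edgeR 0.275). Without adjustment, 2475 genes (18.1%) had a p under 0.05, and limma-voom also called 0 genes at its adjusted p. Of the members, 3 reached an unadjusted p under 0.05 in the higher direction (11.6% of all genes did) and 0 in the lower direction (6.55% did). Of these, Cdk6 passed the filter only through the group where it was high, and with at least 10 counts required of every library 2 members, Ccnd1 and Rb1, reached that p. DESeq2 called these 3 members, Ccnd1, Cdk6 and Rb1, in the higher direction, where it called 9.78% of genes higher and 1.18% lower. Their adjusted p by DESeq2, run once on all 4 libraries, was 0.0449, 0.0203 and 0.0363. On the same libraries the adjusted p of each of the 3 was 0.275 by edgeR and 0.342 by limma-voom. With 2 libraries against 2, an exact permutation test of a single value cannot go below a two-sided p of 0.333.

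The call depended on which TAK-931-treated library was in the fit. Without TAK-931-1, edgeR called 3 members, Ccnd1 (log2 fold change 0.78), Rb1 (0.84) and Cdk4 (−0.36), with 28.7% of all genes called. Without TAK-931-2 it called 9 members, all but E2f1, with 58.1% of all genes called. Without Vehicle-1 or without Vehicle-2 it called 0 members and 0 genes, with 1003 and 1019 genes at an unadjusted p under 0.05. With the replicate number as a block it called 0 members and 1.05% of genes. Each leave-one-out fit takes a lone library to vary as the libraries of the other group do.

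**Figure D2:**
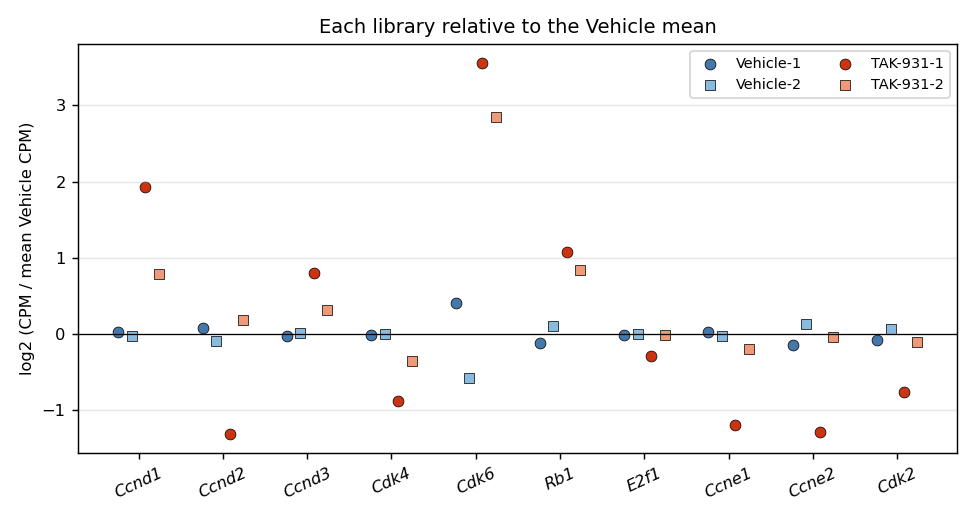
Level of each gene in each library as log2 of its CPM over the mean CPM of the vehicle-treated libraries, on a linear axis of log2 values. TAK-931-1 and TAK-931-2 lie on the same side of both vehicle-treated libraries for 8 genes and on opposite sides for Ccnd2, with 0.403-fold the vehicle mean for TAK-931-1 and 1.13-fold for TAK-931-2.

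The D cyclins, the subunits that tie CDK4 and CDK6 to growth signals, differed from each other in pattern. Ccnd1 (chromosome 7, 144929931 to 144939925, mm10), which is expressed in many adherent and stromal cells, had 16.37 and 15.76 CPM under vehicle, with TAK-931-1 at 61.27 and TAK-931-2 at 27.66. Both TAK-931-treated libraries were above both vehicle-treated ones, and TAK-931-1 was higher than TAK-931-2. The fitted log2 fold change was 1.47 (SE 0.46), with an unadjusted p of 0.0290 and an adjusted p by edgeR of 0.275. It was 0.78 without TAK-931-1 and 1.91 without TAK-931-2.

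Ccnd2 (chromosome 6, 127125709 to 127151048), the most abundant D cyclin of the vehicle-treated tumours, had 353.4 and 314.6 CPM there, with TAK-931-1 at 134.4 and TAK-931-2 at 378.8. The TAK-931-treated libraries thus lay on either side of the vehicle-treated pair. The log2 fold change, −0.38 (SE 0.55), came to 0.18 without TAK-931-1 and −1.34 without TAK-931-2, so the direction rested on 1 library. Ccnd3 (chromosome 17, 47505051 to 47599688), the D cyclin prominent in lymphocytes, had 55.09 and 56.70 CPM under vehicle, with TAK-931-1 at 97.72 and TAK-931-2 at 69.49. Its groups were separate, with a log2 fold change of 0.58 (SE 0.26, adjusted p by edgeR 0.296), which was 0.31 without TAK-931-1 and 0.78 without TAK-931-2. Ccnd3 shares 358 exon bases (15.8% of its exons) with Bysl on the opposite strand. Bysl itself had 2002, 1962, 618 and 1323 counts in the 4 libraries in the same order, opposite in direction to Ccnd3.

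The make-up of the D cyclins was therefore taken within each library, where scaling between libraries plays no part. Ccnd2 held 68.1% and 65.1% of the length-scaled D cyclin counts in Vehicle-1 and Vehicle-2 and 63.3% in TAK-931-2, but 28.2% in TAK-931-1. In TAK-931-1 Ccnd3 was the leading D cyclin, with 52.3%, against 27.1%, 29.95% and 29.7% in Vehicle-1, Vehicle-2 and TAK-931-2. Ccnd1 held 4.80% and 4.96% in the vehicle-treated libraries, 19.5% in TAK-931-1 and 7.03% in TAK-931-2. The group means of the Ccnd2 share were 66.6% ± 2.13 under vehicle and 45.8% ± 24.8 under TAK-931 (SD, n = 2 each), a difference smaller than the spread of the TAK-931-treated pair. For Ccnd1 they were 4.88% ± 0.115 and 13.3% ± 8.84 (SD, n = 2 each). The difference of the Ccnd2 share, −20.8 percentage points, was −3.28 without TAK-931-1 and −38.4 without TAK-931-2. That of the Ccnd1 share, 8.40 points, was 2.15 and 14.6, and that of the Ccnd3 share, 12.4 points, was 1.13 and 23.8. In this measure TAK-931-2 was close to the vehicle-treated libraries for Ccnd2 and Ccnd3.

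**Figure D3:**
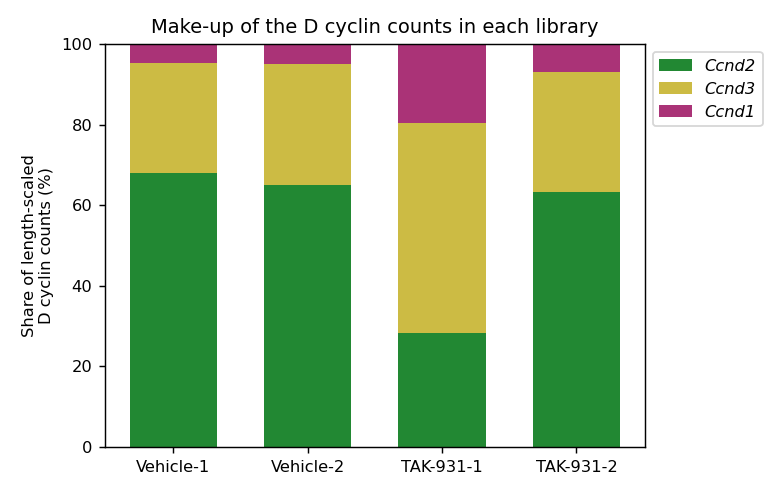
Share of each D cyclin in the length-scaled D cyclin counts of each library, in percent, stacked to 100. Ccnd2 holds between 63.3% and 68.1% in Vehicle-1, Vehicle-2 and TAK-931-2 and 28.2% in TAK-931-1.

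The partner kinases of the D cyclins differed in opposite directions from the vehicle-treated tumours. Cdk4 (chromosome 10, 127063603 to 127067282) had 416.0 and 420.1 CPM under vehicle, with TAK-931-1 at 228.3 and TAK-931-2 at 327.1. The vehicle-treated pair differed little, with a mean of 418.0 ± 2.85 CPM against 277.7 ± 69.9 CPM under TAK-931 (SD, n = 2 each). The fitted log2 fold change was −0.59 (SE 0.28, adjusted p by edgeR 0.309), against −0.36 without TAK-931-1 and −0.90 without TAK-931-2.

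Cdk6 (chromosome 5, 3344312 to 3522225), the D cyclin kinase typical of haematopoietic cells, was barely detected in vehicle-treated tumours. It had 8 counts in Vehicle-1 (95% exact Poisson interval 3.45 to 15.8) and 4 in Vehicle-2 (1.09 to 10.2), whereas TAK-931-1 had 80 (63.4 to 99.6) and TAK-931-2 had 44 (32.0 to 59.1). These counts correspond to 0.474, 0.240, 4.21 and 2.57 CPM, so both TAK-931-treated libraries were well above both vehicle-treated libraries. If both mates of a pair were counted, the counts halve to 4, 2, 40 and 22 in the same order, and the intervals are too narrow. Cdk6 passed the filter on low counts only through the TAK-931-treated libraries, the group where it was high, so its test is no independent support for the difference. The log2 fold change was 3.22 (SE 0.78), with an unadjusted p of 0.0115 and an adjusted p by edgeR of 0.275, and it was 2.82 without TAK-931-1. Cdk6 was the member with the largest fold change and the lowest level. Even so, Cdk4 stayed 99.4 times Cdk6 per length in TAK-931-1 and 233.8 times in TAK-931-2, against 1609 and 3215 times in Vehicle-1 and Vehicle-2, where the small counts of Cdk6 make the ratio imprecise. The share of Cdk6 in the sum of both kinases per length was 0.0466% ± 0.0219 under vehicle and 0.711% ± 0.403 under TAK-931 (SD, n = 2 each). The difference of 0.664 percentage points was 0.379 without TAK-931-1 and 0.950 without TAK-931-2.

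Rb1 (chromosome 14, 73195502 to 73325791), which encodes the protein that holds E2F in check, was the member whose higher level was most alike in TAK-931-1 and TAK-931-2. It had 44.83 and 52.27 CPM under vehicle, with TAK-931-1 at 102.6 and TAK-931-2 at 86.88, or 2.11-fold and 1.79-fold the vehicle mean. The log2 fold change was 0.96 (SE 0.23), with an unadjusted p of 0.0102 and an adjusted p by edgeR of 0.275. It was 0.84 without TAK-931-1 and 1.06 without TAK-931-2. Lpar6, a gene inside an intron of Rb1 on the opposite strand, shares no exon base with it and had 66, 74, 1066 and 158 counts in Vehicle-1, Vehicle-2, TAK-931-1 and TAK-931-2, higher in both TAK-931-treated libraries as Rb1 was. Its part in the Rb1 values was not tested.

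E2f1 (chromosome 2, 154559400 to 154569892), the activating E2F that RB binds, differed little between groups. It had 63.39 and 64.02 CPM under vehicle, with TAK-931-1 at 52.05 and TAK-931-2 at 63.19, the last just under the vehicle-treated pair. The fitted log2 fold change was −0.14 (SE 0.22), against −0.01 without TAK-931-1 and −0.31 without TAK-931-2. Per length, E2f1 exceeded Rb1 in the vehicle-treated tumours, by 2.11 and 1.83 times. TAK-931-1 had a ratio of 0.757 and TAK-931-2 one of 1.09, below the vehicle-treated values in both, with larger ratios to the vehicle mean for Rb1 than for E2f1.

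The E cyclins and their kinase were lower chiefly in TAK-931-1. Ccne1 (chromosome 7, 38097984 to 38107490) had 122.0 and 117.9 CPM under vehicle, with TAK-931-1 at 52.42 and TAK-931-2 at 104.3. The groups did not overlap, but TAK-931-2 was 0.870-fold the vehicle mean whereas TAK-931-1 was 0.437-fold. The log2 fold change, −0.61 (SE 0.39, adjusted p by edgeR 0.390), came to −0.20 without TAK-931-1 and −1.22 without TAK-931-2. Cdk2 (chromosome 10, 128697939 to 128705051), the kinase that cyclin E activates, had 72.11 and 79.72 CPM under vehicle, with TAK-931-1 at 44.78 and TAK-931-2 at 70.60. TAK-931-2 was just below Vehicle-1, and the log2 fold change, −0.40 (SE 0.30, adjusted p by edgeR 0.456), came to −0.11 without TAK-931-1 and −0.78 without TAK-931-2.

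Ccne2 (chromosome 4, 11191351 to 11204779), the second E cyclin gene, had 12.87 and 15.64 CPM under vehicle, with TAK-931-1 at 5.85 and TAK-931-2 at 13.83, which lay between the vehicle-treated values. The fitted log2 fold change was −0.54 (SE 0.55, adjusted p by edgeR 0.570), −0.05 without TAK-931-1 and −1.31 without TAK-931-2. Ccne2 shares 1734 exon bases, 53.9% of its exons, with Ints8 on the opposite strand, and how reads there were assigned is not known. Dividing by the 1486 bases that are not shared gave 8.66, 10.5, 3.94 and 9.31 CPM per kilobase in Vehicle-1, Vehicle-2, TAK-931-1 and TAK-931-2. Ccne1 was the main E cyclin in every library, and the ratio of Ccne1 to Ccne2 per length was 15.6, 12.4, 14.8 and 12.4 in the same order, or 7.20, 5.73, 6.81 and 5.73 per unshared length. The share of Ccne2 was 6.74% ± 1.02 under vehicle and 6.90% ± 0.782 under TAK-931 (SD, n = 2 each), a difference of 0.158 percentage points that was within the spread and ran from −0.560 to 0.877 with 1 library left out at a time. Per unshared length the mean share of Ccne2 was 13.5% under vehicle and 13.8% under TAK-931. The balance within the E cyclins thus showed no difference beyond the spread. The sum of D cyclins over that of E cyclins, per length, was 1.36 and 1.29 in the vehicle-treated libraries, with TAK-931-1 at 2.89 and TAK-931-2 at 1.80, above the vehicle-treated pair in both.

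**Figure D4:**
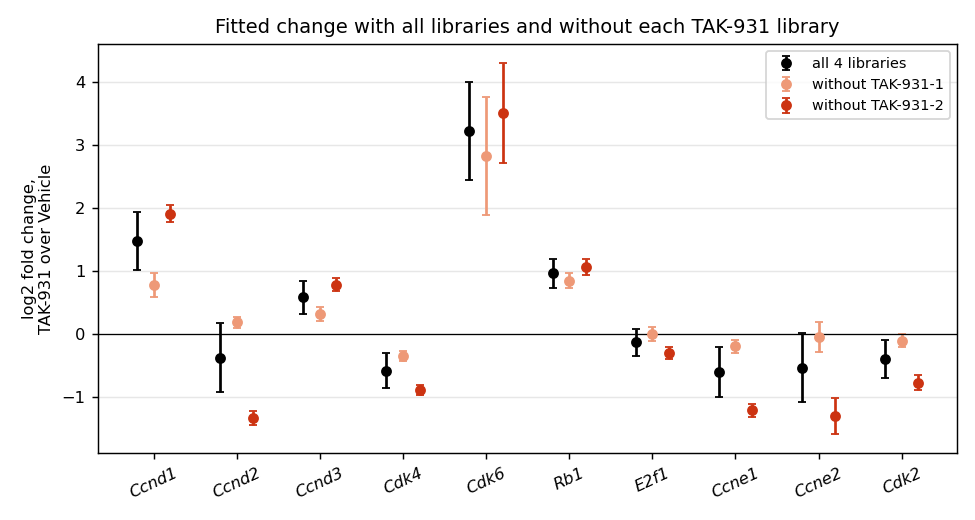
Log2 fold change of TAK-931-treated over vehicle-treated allografts for each gene, with its standard error as bars, from edgeR fits with all 4 libraries, without TAK-931-1 and without TAK-931-2. Ccnd2 changes sign, from −0.38 with all libraries to 0.18 without TAK-931-1, and Rb1 keeps nearly the same value (0.84 to 1.06).

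Other genes of the pathway were then described by lists of known function. Of the 11 other RB-E2F genes, all tested, 1 was higher and 7 were lower in TAK-931-1 and TAK-931-2 than under vehicle, where 30.0% and 32.7% of all tested genes were, and 0 reached an unadjusted p under 0.05 in either direction (18.1% of all tested genes did). Their median log2 fold change was −0.34, against −0.26 for the 10 members and 0.02 for all genes tested. Rbl2, the RB relative p130 that is linked with quiescence, was the higher gene. It had 21.82 and 27.09 CPM under vehicle, with TAK-931-1 at 130.9 and TAK-931-2 at 29.76. The fitted log2 fold change was 1.72 (SE 0.75), with TAK-931-1 at 5.35-fold and TAK-931-2 at 1.22-fold the vehicle mean. Among the lower genes with the largest fold changes, E2f6, a repressive E2F, had a log2 fold change of −0.66 (SE 0.36). Tfdp2, a dimer partner of E2F proteins, had −0.48 (SE 0.29), and E2f8, an atypical E2F that represses, had −0.47 (SE 0.31). The highest adjusted p by edgeR among these 4 was 0.401.

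Of the 7 CDK inhibitor genes, 6 were tested, 1 was higher without overlap (30.0% of all tested genes) and 3 were lower (32.7%), and the median log2 fold change was −0.30. Cdkn1a, which encodes the CDK inhibitor p21, had 19.81 and 17.38 CPM under vehicle, with TAK-931-1 at 132.4 and TAK-931-2 at 45.98. It was the only tested inhibitor with an unadjusted p under 0.05, which 11.6% of all tested genes reached in this direction (log2 fold change 2.26, SE 0.58, adjusted p by edgeR 0.275). Cdkn2b, Cdkn2d and Cdkn1b, which encode p15, p19 and p27, had log2 fold changes of −0.60, −0.58 and −0.24 (SE 0.43, 0.32 and 0.21). Cdkn1c did not pass the filter, and its counts were 2, 4, 257 and 0 in Vehicle-1, Vehicle-2, TAK-931-1 and TAK-931-2.

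The 12 genes of CDK activation and cyclin turnover included 6 that were lower without overlap (32.7% of all tested genes) and 1 that was higher (30.0%). There were 3 at an unadjusted p under 0.05, all lower, where 6.55% of all tested genes were. Of those 3, Mnat1 and Ccnh encode subunits of the CDK-activating kinase together with CDK7. Mnat1 had 52.36 and 50.23 CPM under vehicle, with TAK-931-1 at 13.75 and TAK-931-2 at 27.83 (log2 fold change −1.30, SE 0.41). Ccnh had 45.84, 37.58, 27.55 and 21.94 CPM in the same order (log2 fold change −0.75, SE 0.26), and here TAK-931-2 was the lower of the TAK-931-treated pair. Fbxo31, an F-box protein that targets cyclin D1 for degradation, had a log2 fold change of −1.05 (SE 0.30). Cks1b, a small CDK-binding protein, had −0.74 (SE 0.31). The adjusted p by edgeR was 0.275 for the first 3 and 0.285 for Cks1b. The higher gene was Skp2, which directs p27 to degradation, with a log2 fold change of 0.42 (SE 0.22). Cdk7 overlapped between groups, with a log2 fold change of −0.10.

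Of 20 S phase genes that E2F regulates, 15 were lower without overlap (32.7% of all tested genes), 1 was higher (30.0%) and 4 overlapped, with a median log2 fold change of −0.40. There were 3 that reached an unadjusted p under 0.05, all lower (6.55% of all tested genes): Ccna2, Tyms and Pcna. Ccna2, the cyclin that succeeds cyclin E on CDK2, had 169.8 and 168.9 CPM under vehicle, with TAK-931-1 at 82.29 and TAK-931-2 at 114.7, so both treated tumours were clearly below the vehicle-treated pair (log2 fold change −0.78, SE 0.26, adjusted p by edgeR 0.275). Tyms, thymidylate synthase, had 91.32, 78.40, 46.67 and 55.08 CPM in the same order of libraries. Pcna, the sliding clamp of DNA polymerases, had 448.4, 419.9, 247.3 and 274.5 CPM (log2 fold change −0.73, SE 0.23), so TAK-931-1 and TAK-931-2 were close together. The higher gene was Tk1, thymidine kinase, with a log2 fold change of 0.17 (SE 0.20). Mcm6, a subunit of the replicative helicase, had 442.2, 407.4, 184.8 and 324.6 CPM, and Rrm2, a ribonucleotide reductase subunit, had 583.4, 545.2, 209.7 and 454.6 CPM. The median log2 ratio of the list to the vehicle mean was −0.59 for TAK-931-1 and −0.20 for TAK-931-2, where the medians of all genes were −0.03 and −0.02. The corresponding medians of the other RB-E2F genes were −0.59 and −0.12, and those of the plasma cell and J558 genes were −1.49 and 0.15.

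**Figure D5:**
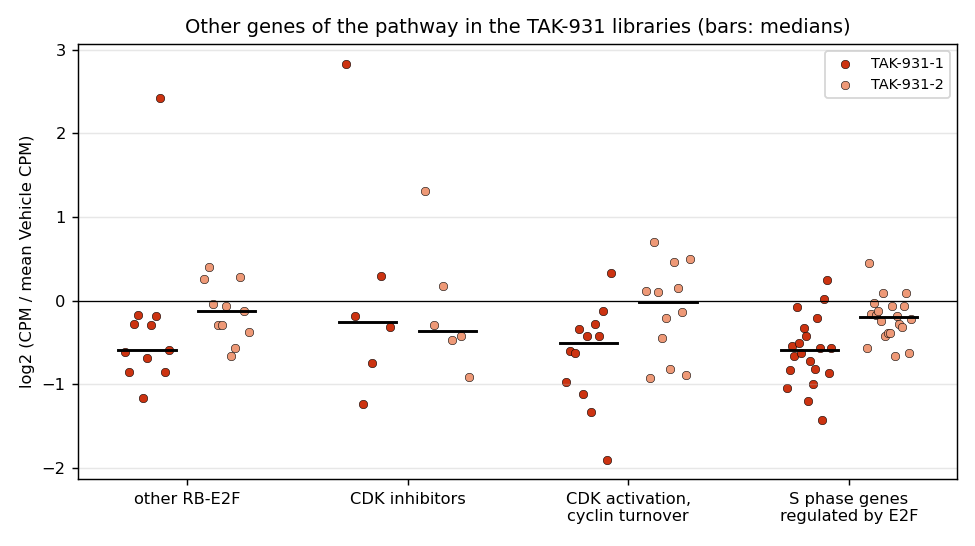
Log2 of CPM over the vehicle mean CPM for each tested gene of 4 lists (11, 6, 12 and 20 genes) in TAK-931-1 and TAK-931-2, with horizontal bars at the medians. The medians of the S phase genes lie at −0.59 and −0.20, and the single high points are Rbl2 and Cdkn1a.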

How the data were processed

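The authors deposited 1 table of raw counts per gene and library, made per the labels' processing notes with STAR 2.6.1c and featureCounts on mm10; the column names say uniquely placed reads. The strand setting and annotation release are not given in the sources used here, so reads of overlapping genes cannot be told apart. A second column deposited by the authors, of another kind, holds exon length in bases. Symbols matched RefSeq GRCm38.p6 for 23204 of 24421 genes, and 99.3% of these overlapped its position. Of counts from 1 to 20, between 17.9% and 23.9% were odd.

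Low genes were removed by edgeR 4.0.16 (filterByExpr, 10 counts at least), libraries were scaled by TMM, and 13669 genes were tested with the robust quasi-likelihood test (R 4.3.3, two-sided, treatment as the only term) with Benjamini-Hochberg adjustment at 0.05. The SE is the absolute log2 fold change divided by the square root of F. The study's supplement plots tumours by individual mouse and takes Vehicle-1 and TAK-931-1 as single allografts chosen as representative. The labels name no animal, so whether Vehicle-2 and TAK-931-2 came from other mice is not stated there, and p-values measure the spread between these libraries. CPM used TMM-scaled totals, and list ratios added 0.1 CPM. DESeq2 1.42.0 and limma-voom (limma 3.58.1) were alternatives. The test was checked on simulated counts (3 simulations at each spread). With 200 genes changed 4-fold, 99.2% were recovered at a low spread (13064 genes tested) and 12.7% at the common spread fitted to these libraries (13029 genes tested). The simulation gave that spread to both groups alike. In the data the vehicle-treated pair correlated at 0.986 and the TAK-931-treated pair at 0.878 across genes, so the 12.7% is a rough guide only.

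Members and lists were chosen with earlier results of these data known. From each pathway list, up to 4 genes were named: those with the largest change among genes with mean log2 CPM over 1 and groups that did not overlap; Cdk7, Skp2, Cdkn1c, Pcna and Tk1 were added after their values were seen. The promoter motifs were chosen after the sequences were seen.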

Additional observations from a re-analysis of the deposited data

How the results depend on the processing

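With all 4 libraries, edgeR called 0 members and 0 genes under each alternative scaling and filter and with halved counts, and limma-voom did the same. Cdk6 could not be tested where 10 counts were required of every library. DESeq2 called 1411 genes and 3 members. The replicate block called 144 genes and 0 members; same-numbered libraries deviated from their group means with a correlation of 0.020 across genes, so they appear to share only a number. With 1 library left out at a time, between 0 and 8424 genes and between 0 and 9 members were called, and between 0 and 10 members reached an unadjusted p under 0.05, against 3. The count of all genes at an unadjusted p under 0.05, 2475, ran from 1003 to 9156 in those fits. The cause of these differences was not tested. Of 119 member values under the alternatives, 1 changed direction: Ccnd2, whose log2 fold change became 0.18 without TAK-931-1 and ran from −1.34 with 1 library left out at a time. A further 15 passed the adjusted p of 0.05, and 103 stayed on their side of it.

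Among the relative levels, the difference of the Ccne2 share was −0.560 percentage points without Vehicle-1 and −0.394 without TAK-931-2, against 0.158, and ran up to 0.877 without Vehicle-2. The difference of the Cdk6 share was 1.21 points without division by exon length, against 0.664, since the exons of Cdk6 are longer than those of Cdk4. Division by unshared exon length, chosen after the data were seen, turned no direction but raised the mean Ccne2 share to 13.5% under vehicle and 13.8% under TAK-931, from 6.74% and 6.90%. The counts of Cdk6 in vehicle-treated tumours were 8 and 4, so its level there is known with wide counting intervals.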
